A study of Mus musculus with 4 samples.

Results

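The comparison described here sets macrophages from the hearts of mice that received an AngII/PE pump against macrophages from mice that received a saline pump, both after PBS injections and without chemotherapy. AngII is angiotensin II, a peptide hormone that constricts vessels and raises blood pressure. PE is written as the labels give it. The macrophages are the barcodes with a mitochondrial share of UMIs under 10%, fewer than 30000 UMIs, more than 500 and fewer than 7000 genes, and at least 10 UMIs per 10000 from the 3 C1q genes C1qa, C1qb and C1qc together. By this rule the PBS saline library held 3251 macrophages and the PBS AngII/PE library 3157, 6408 in all of the 27968 barcodes in the 4 libraries of the study. A UMI is a molecular tag that counts 1 captured RNA molecule.

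The study asked how carboplatin, a platinum compound that damages DNA, alters the macrophages of the heart, and the 2 libraries compared here are its arms without that drug. In them, adult mice of mixed sex received PBS into the abdomen 2 times a week for 2 weeks, at the same volume as carboplatin (45 mg/kg) in the other arms, and then recovered for 4 weeks. A minipump under the skin delivered AngII at 1.5 mg/kg per day with PE at 50 mg/kg per day, or saline, for 7 days. Hearts of 5 mice per group were digested, and phagocytes were sorted as CD64+, CD45+, CD11b+, Ly6G negative and Ly6C low, with 10000 cells loaded per group into 1 library. The labels used here give no strain and no age beyond adult, and nothing ties a cell to 1 of the 5 pooled mice. Each group is therefore 1 library. No p-value was computed, and the 95% intervals in brackets, exact conditional binomial for ratios and exact Clopper-Pearson for shares of cells, cover counting error only and not the spread between mice. Those of ratios treat UMIs as independent, so they also leave out the spread between cells.

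Macrophages of the adult heart come from more than one source. Resident macrophages are seeded early, maintain themselves with little input from blood, clear dying cells and debris, and in the mouse carry receptors such as Timd4, Lyve1, Folr2 and Cd163. Other macrophages derive from blood monocytes, and in many injured tissues some cells take up a state rich in Trem2, Spp1, Gpnmb and lysosomal genes that is known as lipid-associated.

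The macrophages held 38099175 UMIs in the saline library and 39960990 in the AngII/PE library, with medians of 11860 and 12769 UMIs and 3622 and 3817 genes per cell. They formed 75.4% and 82.0% of the cells that passed the other filters. Near the C1q limit, 312 saline and 204 AngII/PE cells lay between 10 and 20 UMIs per 10000, and 228 and 152 cells lay just below it, between 5 and 10. The libraries shared 15 barcodes, 3 of them among macrophages. Cells with Xist and no Y-linked UMI, called female, were 48.7% of sex-called macrophages under saline and 30.3% under AngII/PE, so the mix of sexes moves with the comparison. Of the 153 named genes past 2-fold, 33 had log2 ratios more than 1 apart between the sexes, and values within each sex are given for the main ones among them. Of the 12 macrophage markers, among them Adgre1, Csf1r, Mertk, Cd68 and the sorted CD64 itself (Fcgr1), none differed by 2-fold, and their median log2 ratio was 0.35. Levels are given as CPM, a gene's UMIs divided by all macrophage UMIs of that library and scaled to the usual total. The C1q genes that chose the cells were at 4329 and 4819 CPM for C1qa and at 3948 and 5019.8 CPM for C1qb. Markers of other cells were summed as well. The 14 endothelial markers came to 652 CPM under saline and 248 under AngII/PE (278 and 174 without Cd36, which is also a lipid-associated gene), the 10 fibroblast markers to 180 and 340, the 10 cardiomyocyte markers to 232 and 197, the 11 neutrophil markers to 126 and 237 (82.1 and 108 without S100a8 and S100a9), and the 10 B cell markers to 384 and 312. Every gene of these 5 lists had UMIs in both libraries. The 10 classical monocyte markers came to 2360 and 1152 CPM, of which F13a1, also a resident macrophage gene, made up 2142 and 807. The sums of dendritic cell (92.5 and 101 CPM), patrolling monocyte (313 and 295) and mural markers (18.7 and 18.8) differed little, but single members passed 2-fold. Of the 4 dendritic cell markers with a mean of at least 10 CPM, Flt3 was higher under AngII/PE (log2 ratio 2.88) and Zbtb46 lower (-1.42). Of the 5 such patrolling monocyte markers, Adgre4 was lower (-1.65). Erythroid and platelet markers were at 19.0 and 48.7 CPM with 1 of 9 genes at 0 in both libraries. Mast cell or basophil markers stood at 1.47 and 1.30 CPM with 6 of 9 genes at 0 in at least 1 library.

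Across the 8638 genes whose mean level reached 10 CPM, AngII/PE macrophages differed from saline macrophages by lower levels of resident macrophage transcripts and higher levels of lipid-associated, lysosomal and Ms4a family transcripts. At least 2-fold higher under AngII/PE were 238 genes, 2.76% of those compared, and at least 2-fold lower were 319 genes, 3.69%. The counts given for each list below are to be read beside these shares, and small counts in long lists lie near them. The lists were chosen with earlier results of these data known, so high counts and extreme medians can be in part built in. All 557 counting intervals left out a ratio of 1, which the limits on level and fold already ensure at this depth. The far end was more populated among lower genes, with 104 at least 4-fold lower and 33 at least 8-fold lower against 45 and 10 higher, while 83.3% of all genes stayed within 1.5-fold. The median log2 ratio of all genes was 0.02. As in any summed profile, a lower value can mean fewer cells that carry a transcript or less of it in each cell, and these cannot be told apart from the sum alone.

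**Figure D1:**
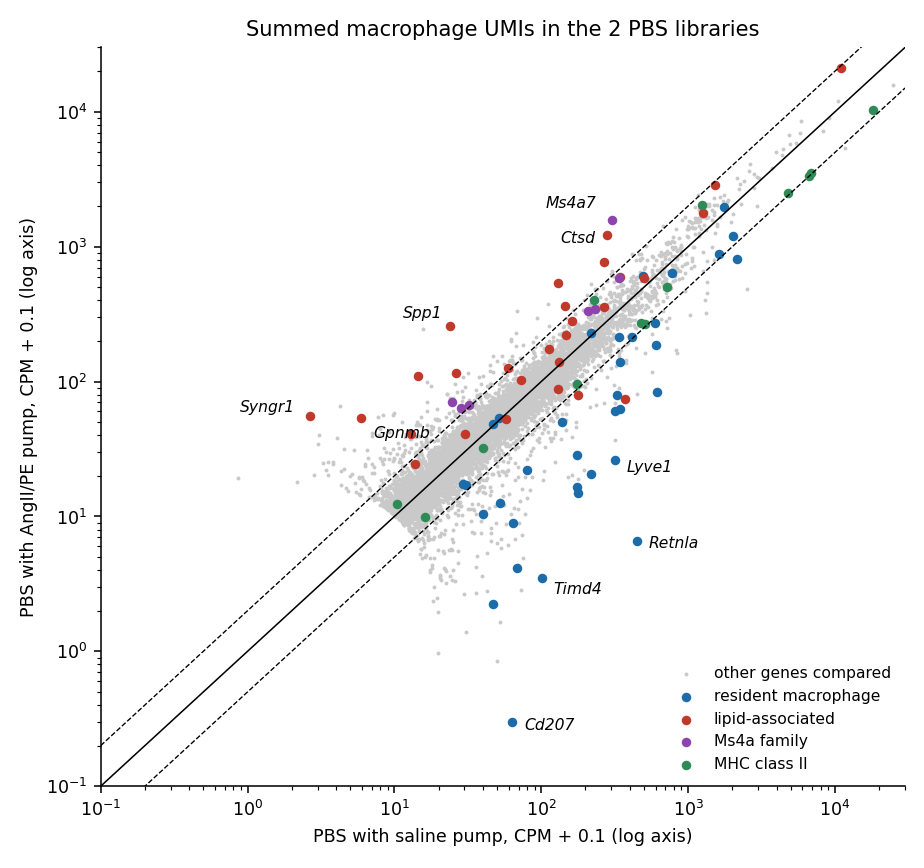
Each point is 1 of the 8638 genes compared, with its CPM (plus 0.1) in macrophages of the PBS saline library on the x axis and of the PBS AngII/PE library on the y axis, both on log axes. The solid line marks equal levels and the dashed lines a 2-fold difference. Blue resident genes lie mostly below the lower dashed line, with Cd207 at 63.3 and 0.200 CPM as the lowest, and red lipid-associated and purple Ms4a genes lie mostly above the solid line.

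Resident macrophage genes, chosen like the other lists with earlier results known, had the lowest median of all the lists. Of 35 compared, 23 were at least 2-fold lower under AngII/PE and 0 higher, against 3.69% and 2.76% of all genes, and the median log2 ratio was -1.87. Timd4, a phosphatidylserine receptor for dying cells (chromosome 11, 46810800 to 46844332, plus strand of mm10), was at 101 CPM under saline and 3.38 CPM under AngII/PE, or 29.9-fold lower (25.2 to 35.8). Lyve1, a hyaluronan receptor (chromosome 7, 110850607 to 110863239, minus strand), was at 319.7 and 26.1 CPM, or 12.3-fold lower (11.5 to 13.1). The haemoglobin scavenger receptor Cd163 had 342 and 62.5 CPM, or 5.47-fold lower (5.24 to 5.71). All 3 differed in the same direction in both sexes, with log2 ratios of -4.20 and -5.14 for Timd4, -3.82 and -3.55 for Lyve1, and -3.35 and -1.89 for Cd163 in female- and male-called cells. Pla2g2d, a secreted phospholipase, stood at 47.1 and 2.13 CPM, and Vsig4, a receptor for complement C3 fragments, at 52.2 and 12.5 CPM.

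The list was not uniform. The mannose receptor Mrc1 was at 1617 and 888 CPM (log2 ratio -0.86), the transcription factor Maf at 774 and 638 (-0.28), and the growth factor Igf1 at 338 and 212 (-0.67). The scavenger receptor Stab1 (0.28) and the selenium carrier Selenop (0.17) were slightly higher under AngII/PE. Resident members thus ranged from a log2 ratio of -8.30 to 0.28.

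Some of the lowest ratios came from few cells. Cd207, the langerin lectin, had 2412 UMIs in 92 saline cells, 31.0% of them in 5 cells, and 8 UMIs in 6 AngII/PE cells, a ratio 316-fold lower (160.2 to 733). Retnla, a resistin-like protein made under type 2 stimulation, was at 449 CPM under saline, in 18.9% of cells, and at 6.53 CPM under AngII/PE, where 5 cells held 98.9% of its 261 UMIs. The AngII/PE levels of both genes thus rest on a handful of cells. The log2 ratio of Retnla was -4.98 for female-called and -7.46 for male-called cells. The B cell chemoattractant Cxcl13 had 49.7 and 0.751 CPM, with 57.9% and 100% of its UMIs in 5 cells. Timd4, Lyve1 and Cd163 were spread more widely, with 2.78%, 2.76% and 2.03% of their saline UMIs in the 5 richest cells.

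Counted per cell at an equal depth of 2000 UMIs, at least 1 UMI of Timd4, Lyve1, Folr2 or Cd163 was found in 55.4% (95% Clopper-Pearson interval 53.6 to 57.1) of 3015 saline macrophages and in 12% (10.8 to 13.2) of 3041 AngII/PE macrophages. In endothelial cells of the same libraries, which should lack these receptors apart from Lyve1 on lymphatics, the shares were 2.65% of 113 and 1.12% of 89 barcodes. Thinning left out 236 and 116 macrophages, and the unthinned shares were 72.6% and 27.9%. Median depths of the endothelial barcodes were 6322 and 11875 UMIs. The summed resident list had a median of 26 UMIs per 2000 under saline and 13 under AngII/PE, and its distribution lay lower, with 5th percentiles of 5 and 2 and 95th percentiles of 67 and 40. The share of cells with the 4 receptors was thus lower by more than the counting error, and both macrophage shares lay above the endothelial ones. All 4 genes were already lower in the sums of the same cells. The lower share describes how that difference spreads over cells and is no separate support for it.

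**Figure D2:**
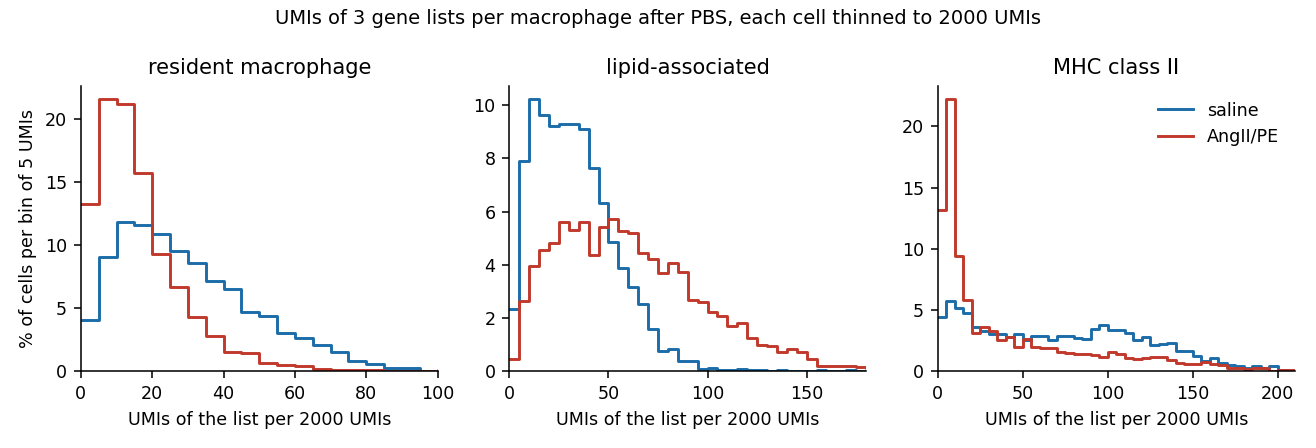
Distribution over cells of the UMIs of 3 gene lists, after each cell was thinned to 2000 UMIs, for 3015 macrophages of the PBS saline library (blue) and 3041 of the PBS AngII/PE library (red), in bins of 5 UMIs (y axis, % of cells). The resident list has medians of 26 and 13, the lipid-associated list 30 and 56, and the MHC class II list 70 and 19, with 5th and 95th percentiles of 5 and 157 in the saline library and of 3 and 144 in the AngII/PE library.

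Genes of alternative activation, the state that interleukin 4 and 13 induce, overlapped with the resident list. Of 16 compared, 6 were at least 2-fold lower and 1 higher, with a median of -0.45. The lectins Mgl2 (613 and 83.5 CPM, 7.34-fold lower (7.08 to 7.62)) and Clec10a (79.9 and 21.9 CPM, 3.65-fold lower (3.38 to 3.94)) and the eosinophil chemoattractant Ccl24 (177 and 14.7 CPM, 12-fold lower (11.1 to 13.1)) were among the lower ones. The single higher one was Tgm2, a transglutaminase, at 9.08 and 42.5 CPM. Tgm2 stood at 16.9 times its macrophage level in endothelial cells, and its log2 ratio was 1.93 in place of 2.23 without cells that carried markers of other cells.

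Among 45 transcription factors of macrophages, 7 were at least 2-fold lower and 2 higher, with a median of -0.25. Rbpj, the DNA-binding factor of Notch signalling, was at 2526 CPM under saline and 486 CPM under AngII/PE, or 5.2-fold lower (5.12 to 5.28). Klf2, a factor that restrains activation of myeloid and endothelial cells, was at 834 and 161 CPM. Its level in endothelial cells was 8.21 times that in macrophages, and its log2 ratio was -2.37 over all macrophages and -2.51 without cells with markers of other cells. Irf4, needed for alternative activation, had 29.2 and 8.68 CPM, the class IIa deacetylase Hdac9 721 and 250.4 CPM, and Spic, a factor of iron-recycling macrophages, 22.1 and 7.83 CPM. General macrophage factors differed less, with log2 ratios of 0.27 for Spi1 and 0.26 for Irf8. Lower factors were thus a subset of the list, and the 2 higher ones, Id2 and Arid5b, had log2 ratios of 1.06 and 1.01.

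Lipid-associated genes went the other way. Of 28 compared, 11 were at least 2-fold higher and 2 lower, and the median log2 ratio was 0.81, with 0.86 for female-called and 0.74 for male-called cells. Spp1, the matrix cytokine osteopontin (chromosome 5, 104435118 to 104441050, plus strand), was at 23.7 CPM under saline and 257 CPM under AngII/PE, or 10.8-fold higher (10.1 to 11.6). The lipid-sensing receptor Trem2 was at 130.0 and 542 CPM, or 4.17-fold higher (4.04 to 4.3). Gpnmb, a glycoprotein of lysosome-rich macrophages, was at 5.85 and 53.5 CPM, or 9.14-fold higher (7.96 to 10.5). In the saline library 5 cells held 79.4% of the Gpnmb UMIs and 52.9% of the Spp1 UMIs, against 11.2% and 10.1% under AngII/PE, so the saline levels of both rest on few cells. Without those cells the log2 ratios were 5.30 and 4.37. The size of both ratios differed by sex, with log2 ratios of 2.14 for female-called and 4.21 for male-called cells for Spp1 and of 2.14 and 4.12 for Gpnmb. The largest ratio of the list belonged to Syngr1, a synaptogyrin of vesicle membranes, at 2.57 and 55.1 CPM, or 21.4-fold higher (17.5 to 26.5).

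Other members of the list handle lipid, matrix and stress signals. The fatty acid carrier Fabp5 had 26.1 and 116 CPM, the membrane protease Mmp14 14.4 and 110.0 CPM, the galectin Lgals3 269 and 766 CPM, and the stress cytokine Gdf15 12.8 and 40.4 CPM. Fabp5 is abundant in endothelial cells, at 26.5 times the macrophage level, and without cells with markers of other cells its log2 ratio was 3.15 in place of 2.15. The 2 lower members both handle lipid. Cd36, a fatty acid and lipoprotein receptor that is also high in endothelium, was at 374 and 74 CPM, with a log2 ratio of -2.34. Without cells with other markers it was -2.13. Cd36 is itself an endothelial marker by which those cells were left out, so this value cannot show the part of endothelial RNA. The lipase Lpl was at 177 and 79 CPM (-1.16).

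At 2000 UMIs per cell, Trem2, Spp1 or Gpnmb was found in 20.6% (19.2 to 22.1) of saline and 60.4% (58.6 to 62.1) of AngII/PE macrophages, beside 0.885% and 1.12% of the endothelial barcodes, and in 54.5% and 86.5% of macrophages without thinning. Cells with both a resident receptor and one of these 3 transcripts made up 11.1% (9.98 to 12.3) of the saline library and 7.27% (6.37 to 8.25) of the AngII/PE library at this depth. Cells with neither were 35.1% and 34.9%. Both kinds of transcript were thus found together in a minority of cells in both libraries, at a depth where absence of a UMI does not show absence of expression.

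Apolipoprotein and cholesterol efflux genes had a median of 0.56, with 2 of 12 at least 2-fold higher and 0 lower. Apoc2, the activator of lipoprotein lipase, was at 7.66 and 54.6 CPM, or 7.13-fold higher (6.31 to 8.08), and the cholesterol exporter Abcg1 at 29.4 and 76.9 CPM, or 2.61-fold higher (2.44 to 2.8). Apoe stayed under 2-fold, at 11027 and 21196 CPM (log2 ratio 0.94). In the sterol synthesis list 2 of 15 were lower and 0 higher. The isomerase Idi1 and the demethylase Cyp51 had log2 ratios of -1.30 and -1.01 over all cells, but -0.24 and 0.15 in female-called against -1.98 and -1.64 in male-called cells.

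**Figure D3:**
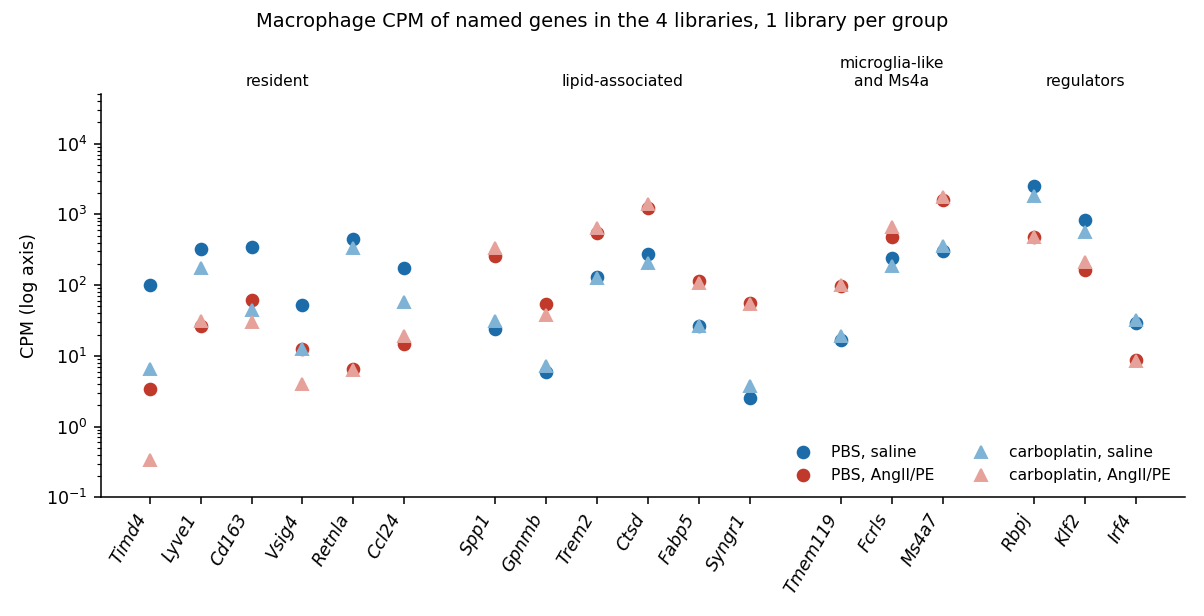
Macrophage CPM on a log axis of named genes in the 4 libraries, 1 point per library (circles after PBS, triangles after carboplatin, blue for saline and red for AngII/PE). In the PBS pair Timd4 lies at 101 and 3.38 CPM and Spp1 at 23.7 and 257, and for every gene drawn both AngII/PE points lie on the same side of the saline point of their own pair.

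Lysosomal genes were higher as a group, by less per gene. Of 33 proteases and hydrolases, 5 were at least 2-fold higher, 0 lower, and 29 had a log2 ratio above 0, with a median of 0.51. Ctsd, the main aspartic protease of the lysosome, was at 279 and 1218 CPM, or 4.37-fold higher (4.28 to 4.46). The cysteine protease Ctsl was at 146 and 362 CPM, or 2.48-fold higher (2.4 to 2.55), the asparaginyl protease Lgmn at 670.2 and 1432 CPM, or 2.14-fold higher (2.11 to 2.17), and progranulin, Grn, at 414 and 876 CPM, or 2.12-fold higher (2.08 to 2.16). Among 20 genes of the proton pump and lysosome biogenesis only the pump subunit Tcirg1 passed 2-fold, at 62.7 and 141 CPM, and the median was 0.36.

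The promoter of Ctsd is printed because it belongs to the lysosomal gene with the largest ratio and holds a motif common in this group. RefSeq promoters were at hand for 411 of the 557 genes past 2-fold and for 24 of the 33 lysosomal genes, each as the 250 bases before the first listed start (build GRCm38.p6). CACGTG, the palindromic E-box core that transcription factors of the MiT family can bind, lay in 6 of these 24 promoters (25%) and in 6.05% of 27025 promoters of the same length. Capitals mark it in the sequence of Ctsd, which lies at chr7:142387828-142388077 on the minus strand and is written 5′ to 3′ towards the gene.
Ctsd: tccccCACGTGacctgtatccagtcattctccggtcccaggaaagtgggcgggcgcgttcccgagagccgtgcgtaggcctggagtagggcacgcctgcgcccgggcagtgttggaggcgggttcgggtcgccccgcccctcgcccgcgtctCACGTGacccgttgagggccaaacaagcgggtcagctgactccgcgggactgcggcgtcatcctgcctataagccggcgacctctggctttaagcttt
The 2 matches begin 245 and 98 bases before the start. A match of letters is a description and does not show that a factor binds there.

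Genes known from microglia, the macrophages of the brain, had 7 of 27 members at least 2-fold higher and 2 lower, with a median of 0.25. Tmem119, a microglial membrane protein (chromosome 5, 113793729 to 113800516, minus strand), was at 16.6 CPM under saline and 98.6 CPM under AngII/PE, or 5.95-fold higher (5.47 to 6.49), and was found in 2.12% and 14.3% of cells at 2000 UMIs and in 10.3% and 47.5% without thinning. It was found in 0 of 113 and 0 of 89 endothelial barcodes, which allows shares of up to 2.65% and 3.37%, so the saline share is not above that limit. The Fc receptor-like gene Fcrls was at 240.5 and 486 CPM, or 2.02-fold higher (1.97 to 2.07). Other defining microglial genes stayed under 2-fold, among them the ADP receptor P2ry12 (log2 ratio -0.08) and the fractalkine receptor Cx3cr1 (0.33). Olfml3 and Sparc, both secreted matrix proteins, had log2 ratios of 1.67 and 1.68. Both are higher in fibroblasts, at 8.08 and 135 times the macrophage level, and without cells with other markers the values were 1.44 and 2.33.

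The Ms4a family encodes membrane proteins with 4 spans that associate with surface receptors. All 7 members compared were higher under AngII/PE, 4 of them at least 2-fold, and the median was 1.05, with 0.50 for female-called and 1.47 for male-called cells. Ms4a7 (chromosome 19, 11321039 to 11336146, minus strand) was at 301 CPM under saline and 1576 CPM under AngII/PE, or 5.24-fold higher (5.14 to 5.34). It was found in 36.9% of saline and 81.0% of AngII/PE macrophages at 2000 UMIs, beside 2.65% and 2.25% of the endothelial barcodes, and in 68.2% and 92.8% without thinning. Ms4a4c had 24.4 and 70.3 CPM, Ms4a14 28.5 and 64.1 CPM, and Ms4a4a 32.2 and 66.8 CPM. Ms4a4a differed between the sexes in size, with log2 ratios of 0.39 for female-called and 1.71 for male-called cells.

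**Figure D4:**
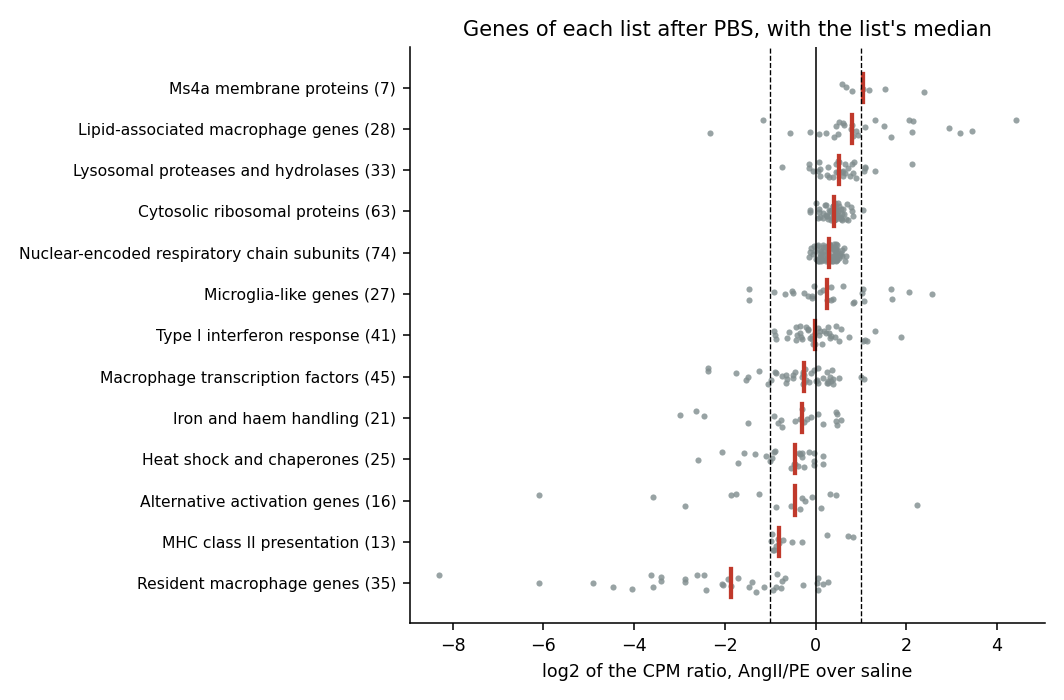
Log2 of the CPM ratio of AngII/PE over saline after PBS (x axis) for the genes of 13 lists, 1 grey point per gene, with the list's median as a red bar and the number of genes compared in brackets. Dashed lines mark 2-fold. Resident genes have the lowest median, -1.87, and Ms4a genes the highest, 1.05, while respiratory chain and ribosomal protein genes form narrow groups just above 0.

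MHC class II genes, which present peptides to CD4+ T cells, were mostly lower, by less than 2-fold in the sum over all macrophages. Of 13 compared, 0 passed 2-fold, 3 had a log2 ratio above 0, and the median log2 ratio was -0.81, with -0.48 for female-called and -0.85 for male-called cells. H2-Aa was at 6815 CPM under saline and 3507 CPM under AngII/PE, H2-Eb1 at 6651 and 3362 CPM, and the transactivator Ciita at 175 and 96.3 CPM. Several members lie close to 2-fold, so their count depends on the cells kept. It was 3 for male-called cells, 0 for female-called cells, 5 of 11 without cells with markers of other cells, and at most 2 under the settings for level, depth and C1q. Ctss, the protease that cleaves the invariant chain, and Ifi30, a lysosomal thiol reductase, were higher, with log2 ratios of 0.72 and 0.82.

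The sum hid a wide spread between cells. At 2000 UMIs per cell the list had a median of 70 UMIs under saline and 19 under AngII/PE, whereas the 95th percentiles were close, at 157 and 144. Cells with 0 to 9 UMIs of the list were 10.1% of saline and 35.4% of AngII/PE macrophages, and cells with 80 or more were 44.5% and 20.4%. These are ranges of a continuous measure and not cell types, and 28.6% and 22.3% of cells lay between 30 and 79. Within the AngII/PE library, the cells with 0 to 9 UMIs had a median of 18 resident and 63 lipid-associated UMIs, against 8 and 46 in cells with 80 or more. Within the saline library the same ranges had medians of 41 and 20 resident and of 30 and 31 lipid-associated UMIs. A resident receptor was found in 75.7% of the saline cells with the fewest MHC class II UMIs and in 41.4% of those with the most, and in 19.1% and 3.54% of the AngII/PE cells in the same ranges. In each range of MHC class II, resident receptors were thus found in a smaller share of AngII/PE cells. All lists in a cell share its fixed total, so a cell rich in 1 list has fewer UMIs left for the others.

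Genes of monocyte-derived macrophages did not move together. Of 23 compared, 3 were at least 2-fold higher and 2 lower, and the median was -0.06. The chemokine receptor Ccr2 was at 169 and 249.5 CPM (log2 ratio 0.56). Thbs1, a matrix protein that activates latent TGF-beta, was at 3.96 and 38.2 CPM, or 9.65-fold higher (8.16 to 11.5). Its fibroblast level was 7.93 times that of macrophages, 5 cells held 50.3% of its saline UMIs, and without cells with other markers the log2 ratio was 3.04 in place of 3.27. The protease Napsa was at 16.5 and 60.1 CPM, while the lysozyme Lyz1 was lower, at 73.8 and 7.13 CPM, or 10.3-fold lower (9.16 to 11.7). Its near-identical neighbour Lyz2, the main macrophage lysozyme, was at 9076 and 8930.2 CPM, and reads shared by the 2 genes make the Lyz1 value uncertain.

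Chemokine genes split. In the list of CC chemokines that attract monocytes and eosinophils, 1 of 9 was at least 2-fold higher and 2 were lower. The lower ones were Ccl24, given above, and Ccl6. Ccl6 was at 742 and 296 CPM, or 2.51-fold lower (2.45 to 2.56), and Ccl3 at 204 and 438 CPM, or 2.15-fold higher (2.09 to 2.21), with log2 ratios for Ccl3 of 1.73 for female-called and 0.64 for male-called cells. The monocyte attractants Ccl2 and Ccl7 had log2 ratios of -0.36 and -0.19. Among 9 other chemokines, 3 were higher and 3 lower. The interferon-induced Cxcl10 was at 53.8 and 156 CPM and the T cell attractant Ccl5 at 9.84 and 58.2 CPM, with 41.8% and 61.1% of their saline UMIs in 5 cells. Summed T, NK and innate lymphoid markers were at 9.03 CPM under saline and 24.5 under AngII/PE, with Gzma at 0 UMIs in the AngII/PE library. Il7r alone made up 3.44 and 20 CPM of these sums, and the other 11 markers together were at 5.59 and 4.45 CPM. Their part in the Ccl5 value was not tested.

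Some receptors for such signals and some cytokine genes passed 2-fold, beside 2.76% higher and 3.69% lower over all genes compared. Among 15 chemokine and chemoattractant receptors, 2 were at least 2-fold higher and 0 lower, with a median of 0.33. Cxcr4 was at 30.1 and 91.2 CPM, or 3.03-fold higher (2.84 to 3.24), and the chemerin-binding Ccrl2 at 22.6 and 80.4 CPM, or 3.55-fold higher (3.3 to 3.84). Of 29 cytokines and cytokine receptors, 2 were higher and 0 lower, with oncostatin M, Osm, at 9.69 and 25.7 CPM. Tnf (0.34) and Il1b (-0.36) stayed under 2-fold. In the list of 25 early inflammatory genes of the NF-kappa B pathway only Clec4e, a receptor for mycobacterial glycolipids and dead cells, passed 2-fold, at 6.9 and 39.2 CPM.

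Lectin and paired receptors went both ways. Of 18 C-type lectin receptors, 4 were at least 2-fold higher and 4 lower. Clec4e and its partner Clec4d (26.8 and 83.1 CPM) were higher, and Mgl2, Clec10a and Cd207 were lower. Among 21 Siglecs, SIRPs and inhibitory receptors 4 were higher and 1 lower. Sirpb1c was at 16.7 and 70.9 CPM, Sirpb1a at 11.6 and 33.6 and Sirpb1b at 18.2 and 45.9 CPM. These 3 are near-identical copies, so their split of UMIs is uncertain. Lilra5, an activating receptor, was lower, at 215 and 65.2 CPM. Of 7 Fc receptors, 2 were higher, Fcgr4 at 65.8 and 134 CPM and Fcrls.

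Receptors and other genes for the binding and clearing of dying cells and debris also parted. Of 27 compared, 4 were at least 2-fold higher and 6 lower. Cd300lf, a phosphatidylserine receptor of the CD300 family, was at 2.97 CPM under saline and 40.3 CPM under AngII/PE, or 13.6-fold higher (11.2 to 16.6), while Timd4, which binds the same lipid, was lower. The kinase receptor Mertk was at 228 and 377 CPM, with log2 ratios of 0.08 for female-called and 1.21 for male-called cells, and its bridging ligands Gas6 and Pros1 had log2 ratios of -1.31 and -1.23. Colec12, a scavenger lectin, was at 218 and 20.5 CPM, or 10.6-fold lower (9.86 to 11.4). Fibroblasts held Colec12 at 13.3 times the macrophage level, and its log2 ratio was -3.22 without cells with other markers and -3.40 with them.

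In the complement list, 2 of 16 genes were at least 2-fold higher and 3 lower. C4b of the classical pathway was lower, at 105 and 32.7 CPM, or 3.23-fold lower (3.03 to 3.44). Factor B, Cfb, was higher, at 5.83 and 15.8 CPM, and so was C3, at 9.84 and 26.9 CPM. C3 stood at 111 times the macrophage level in fibroblasts, whose summed markers went from 180 to 340 CPM. Without cells with other markers the log2 ratio of C3 was 1.62.

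Iron and haem genes had 4 of 21 at least 2-fold lower and 0 higher. The transferrin receptor Tfrc was at 49.6 and 6.23 CPM, or 7.96-fold lower (6.97 to 9.12), and the ferroxidase Cp at 69.6 and 11.2 CPM, or 6.21-fold lower (5.62 to 6.88). Cd163 and Spic were the other two. The ferritin chains Fth1 and Ftl1 were higher by less, with log2 ratios of 0.55 and 0.47, and haem oxygenase Hmox1 was at 231 and 169 CPM (-0.45).

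The type I interferon list as a whole stayed level, with a median of -0.01, but 5 of 41 genes were at least 2-fold higher and 0 lower. The interferon-induced regulator Irf7 was at 29.3 CPM under saline and 107 CPM under AngII/PE, or 3.66-fold higher (3.43 to 3.92). Ifit1, which binds viral RNA caps, was at 11.4 and 28.1 CPM, or 2.47-fold higher (2.21 to 2.76), Rsad2 at 15.3 and 33.6 CPM, and Ifit2 at 17.8 and 36.8 CPM. Other members were lower without passing 2-fold, with log2 ratios of -0.91 for Samd9l, -0.87 for Oas2 and -0.62 for Ifi203. The per-cell sum had medians of 7 and 6 UMIs per 2000. The list median was 0.28 for female-called and 0.02 for male-called cells. In the list of interferon gamma targets 1 of 12 was lower, the GTPase Iigp1, at 83.6 and 28.3 CPM.

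The promoter of Ifit1 is shown for the interferon group. A pair of GAAA units with 2 bases between them, the core of the interferon-stimulated response element, lay on either strand in 15 of 31 list members with a promoter at hand (48.4%) and in 3.04% of all 27025 promoters. It lay in 3 of the 5 members past 2-fold, Ifit1, Rsad2 and Ifit3b. Capitals mark it in the 250 bases before Ifit1, chr19:34640639-34640888, plus strand.
Ifit1: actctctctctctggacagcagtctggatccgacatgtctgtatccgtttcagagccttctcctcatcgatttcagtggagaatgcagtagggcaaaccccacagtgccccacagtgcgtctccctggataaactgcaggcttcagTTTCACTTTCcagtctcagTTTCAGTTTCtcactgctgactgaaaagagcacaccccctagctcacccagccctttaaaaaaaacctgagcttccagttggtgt
The matches begin 104 and 85 bases before the start. The match is a description of the sequence.

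Heat shock and chaperone genes, which rise when proteins unfold and also during the digestion of tissue into cells, had 7 of 25 members at least 2-fold lower under AngII/PE and 0 higher. Hspa1b was at 1307 and 401 CPM, or 3.26-fold lower (3.2 to 3.32), and Hspa1a at 1349 and 455 CPM, or 2.96-fold lower (2.91 to 3.01). The 2 genes are near-identical copies, so the split between them is uncertain, but both differ alike. Hsph1 was at 162 and 38.8 CPM and Hsp90aa1 at 706 and 281 CPM. The size differed by sex. The list median was -0.13 for female-called and -0.80 for male-called cells, and Hspa1b had log2 ratios of -0.60 and -2.40. The difference between the sexes was not tested. Immediate-early genes had a median of -0.15, with 2 of 34 higher and 4 lower, among them Fosb at 390.4 and 192 CPM. Mitochondrial shares had medians of 2.87% and 3.34% of UMIs. The part of tissue handling in these values was not tested.

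The promoter of Hspa1b is shown for the heat shock group and carries GAANNTTC, a pair of facing heat shock factor units, in capitals, in the 250 bases before its start, chr17:34959239-34959488, minus strand.
Hspa1b: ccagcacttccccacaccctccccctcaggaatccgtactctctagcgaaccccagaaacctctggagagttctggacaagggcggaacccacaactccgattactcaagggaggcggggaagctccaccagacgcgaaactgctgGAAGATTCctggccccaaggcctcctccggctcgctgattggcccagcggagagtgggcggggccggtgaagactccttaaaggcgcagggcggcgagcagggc
The match begins 104 bases before the start. GAANNTTC reads alike on both strands, and it lay in 7 of 21 list members with a promoter at hand (33.3%), in 4 of the 6 of these past 2-fold, and in 6.78% of all promoters.

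The list of glucocorticoid and mineralocorticoid response genes, which also holds the receptors, had 3 of 22 members at least 2-fold higher and 3 lower. Fkbp5, a chaperone that these receptors induce, was at 62.2 CPM under saline and 199.9 CPM under AngII/PE, or 3.22-fold higher (3.07 to 3.37), with log2 ratios of 0.48 for female-called and 2.15 for male-called cells. The stress gene Ddit4 was at 6.19 and 23.7 CPM, with 0.49 and 2.58. The receptors themselves were lower, the glucocorticoid receptor Nr3c1 at 341 and 153 CPM, or 2.22-fold lower (2.15 to 2.29), and the mineralocorticoid receptor Nr3c2 at 71.1 and 13 CPM, or 5.48-fold lower (4.99 to 6.04). Nr3c2 was at 7.13 times the macrophage level in endothelial cells, and its log2 ratio was -2.36 without cells with other markers. In female- and male-called cells it was -3.05 and -1.70. Thbs1 and Cd163, both given above, were the other higher and the other lower member of the list. Among 14 clock genes only Arntl passed 2-fold, lower at 51.7 and 20.2 CPM. The clock gene Per1 was at 29.9 and 55.4 CPM.

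Of 25 genes for angiotensin, adrenergic and G protein signalling, the pathways that the pump addresses, 1 was at least 2-fold higher and 3 lower. Rgs1, which switches off G protein signals, was at 93.2 and 294 CPM, or 3.15-fold higher (3.04 to 3.27). The receptor kinase Grk5 was at 116 and 53.3 CPM and protein kinase C alpha, Prkca, at 42.2 and 18.5 CPM. Ednrb, an endothelin receptor that is abundant in endothelium, was at 67.7 and 4.08 CPM, with a log2 ratio of -4.05, or -3.93 without cells with other markers. The angiotensin and alpha adrenergic receptor genes lay under the level needed for comparison.

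Growth factors and their receptors went in both directions, with 6 of 27 at least 2-fold higher and 6 lower. The epidermal growth factor family ligand Areg was at 18.3 and 2.25 CPM, stem cell factor, Kitl, at 153 and 19.4 CPM, and the axon guidance ligand Sema6d at 52.9 and 6.71 CPM, all lower. Kitl and Sema6d were at 46.6 and 18.3 times the macrophage level in endothelial cells, and their log2 ratios were -2.98 and -2.98 with, and -3.14 and -3.11 without, cells with other markers. In the TGF-beta family 7 of 26 were higher and 4 lower. The ligand Gdf3 was higher, at 11.1 and 50.4 CPM, or 4.54-fold higher (4.09 to 5.05), and Bmp2 was lower, at 22 and 3.95 CPM, or 5.56-fold lower (4.68 to 6.63).

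Among 17 matrix and fibrosis genes 5 were at least 2-fold higher and 2 lower. Spp1, Thbs1, Sparc, Olfml3 and the proteoglycan Bgn (3.44 and 25.4 CPM) were the higher ones. Bgn and Sparc are fibroblast genes, at 309.6 and 135 times the macrophage level there, and the summed fibroblast markers also went from 180 to 340 CPM. Without cells with other markers Bgn had a log2 ratio of 2.99, beside 2.89 with them. RNA released by fibroblasts into the droplets was not measured, and its part was not tested. Of 11 matrix proteases and inhibitors, Mmp14 and Adam8 (6.98 and 41.6 CPM) were at least 2-fold higher. The gelatinase Mmp9 (30.4 and 1.3 CPM) and the collagenase Mmp13 (80.3 and 13.5 CPM) were lower.

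Lipid mediator enzymes had 3 of 17 at least 2-fold lower and 0 higher. These were the prostaglandin-degrading Hpgd, at 604 and 186 CPM, and the leukotriene enzymes Alox5, at 136 and 37.3 CPM, and Ltc4s, at 139 and 49.8 CPM. Among ion channels the calcium channel Cacna1a was lower, at 315 and 36.5 CPM, or 8.64-fold lower (8.18 to 9.13). Another calcium channel, Cacna1d, was higher, at 75.5 and 188 CPM, as were the potassium channel Kcnn4, at 9.66 and 56.4 CPM, and the proton channel Hvcn1, at 8.45 and 26.4 CPM.

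Housekeeping groups differed little, and most members lay on one side of 0. Of 74 nuclear-encoded subunits of the respiratory chain, 67 had a log2 ratio above 0, 0 passed 2-fold, and the median was 0.29. Of 63 cytosolic ribosomal proteins, 61 were above 0, with a median of 0.41, and only Rpl41 passed 2-fold, at 1167 and 2423 CPM. Over all genes, 4450 of 8638 were above 0. Antioxidant genes had 4 of 25 higher and 0 lower, among them Prdx6, at 32.2 and 72.7 CPM. Of 31 glycolysis and hypoxia genes 2 were higher and 0 lower, Ddit4 and Ndrg1. Cell cycle genes had 0 of 15 S phase genes past 2-fold and 1 of 11 G2 and M phase genes, Kif23, lower at 20.4 and 9.38 CPM. These lists hold 33 and 40 genes, so most of their members were not compared.

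The remaining lists differed in how many members passed 2-fold, beside 2.76% higher and 3.69% lower over all genes compared. MHC class I presentation (21 genes), the unfolded protein response (20) and the inflammasome (19) had 0 in both directions, with medians of -0.14, -0.18 and -0.21. The unfolded protein response median was 0.20 for female-called and -0.48 for male-called cells. The p53 target and cell cycle inhibitor list had 2 of 30 lower, the cyclin Ccnd2 at 124 and 42.3 CPM and the inhibitor Cdkn1c at 20.3 and 7.03 CPM. Actin and adhesion genes had 2 of 40 higher, the integrins Itga6 and Itgb5, and Toll-like and nucleic acid receptors 1 of 27, Trem2, which that list also holds. In the list of 26 S100 proteins, annexins and galectins 4 were higher and 2 lower. The neutrophil proteins S100a8 and S100a9 had 18.7 and 25 CPM under saline and 52.7 and 75.5 under AngII/PE, with 96.2% and 96.8% of their saline UMIs in 5 cells, beside summed neutrophil markers of 126 and 237 CPM. The log2 ratios were 5.87 and 6.87 for female-called cells, whose saline sums held only 10 and 9 UMIs, and 0.74 and 0.90 for male-called cells. Both genes also stayed under 2-fold when cells were thinned to 2000 UMIs. The part of neutrophil RNA in these values was not tested.

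Several of the genes with the largest ratios belong to none of the lists. Under AngII/PE the intermediate filament gene Des, known from muscle, was at 65.4 CPM against 4.15 under saline, or 15.8-fold higher (13.4 to 18.6), and was found in 7.56% and 0.730% of cells at 2000 UMIs (23.5% and 3.88% without thinning), beside 4.49% and 3.54% of endothelial barcodes. In the AngII/PE library 5 cells held 27% of its UMIs. A pair of cardiomyocyte stress genes that fall under the mean level of 20 CPM needed for naming, and were picked out after their values were seen, differed the same way, the natriuretic peptide Nppa from 0.761 to 19.3 CPM and the ankyrin repeat protein Ankrd1 from 2.94 to 34.4 CPM. The summed cardiomyocyte markers went from 232 to 197 CPM, with Tnnt2 at 36.1 and 64.2 CPM and Myh6 at 6.06 and 4.83 CPM. The part of cardiomyocyte RNA in the Des, Nppa and Ankrd1 values was not tested. The guanine nucleotide exchange factor Dock5, the transcription factors Runx2 and St18, with 56.5, 40.3 and 92 CPM against 8.27, 7.72 and 17.7 under saline, complete the highest 15.

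At the low end, Chp2, a calcineurin-like calcium-binding protein, was at 52.7 and 1.55 CPM, or 34-fold lower (26.4 to 44.5), with 2.54% of its saline UMIs in 5 cells. The RNA-binding protein Celf4 was at 75.2 and 4.83 CPM and the channel-associated protein Kctd16 at 42.7 and 2.7 CPM. Cmah, which makes the sialic acid Neu5Gc, was at 178 and 18.7 CPM, the histamine receptor Hrh1 at 52.8 and 5.78 CPM and the channel subunit Kcnip4 at 66.3 and 6.68 CPM. The antibody heavy chain Igha, a plasma cell product, was at 73 and 2.73 CPM, with 51.7% of its saline UMIs in 5 cells. The part of plasma cell RNA in that value was not tested.

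The same contrast was made in mice that had received carboplatin, with 2399 saline and 5128 AngII/PE macrophages in libraries that are not shared with the PBS pair. There 164 of 8628 genes lay 2-fold or more above saline, 1.9%, and 257 lay 2-fold or more below, 2.98%. Of the 238 higher genes of the PBS pair, 233 had the same direction after carboplatin and 126 were called there too, 52.9% of the PBS genes and 76.8% of the carboplatin genes. For the lower genes, 316 of 319 had the same direction and 168 were called in both, 52.7% and 65.4%. Across the 8638 genes the log2 ratios of the 2 pairs had a Pearson coefficient of 0.842 and a Spearman coefficient of 0.809, a description over genes, which are not independent.

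Resident genes were lower in both pairs but by less after carboplatin, with medians of -1.87 and -0.73 and 23 and 16 of 35 members at least 2-fold lower. Cd163 was at 342 and 62.5 CPM after PBS and at 44.2 and 30.3 CPM after carboplatin, where its saline level was already low. Folr2 had log2 ratios of -2.41 and -0.97, and Ccl24 -3.59 and -1.60. Retnla was lower in both pairs, with -6.10 and -5.73. MHC class II genes had the larger ratio after carboplatin, with medians of -0.81 and -1.24 and 0 and 8 of 13 members at least 2-fold lower. Lipid-associated genes were close, with medians of 0.81 and 0.90, and so were Spp1 (3.44 and 3.40), Trem2 (2.06 and 2.37), Tmem119 (2.57 and 2.39) and Ms4a7 (2.39 and 2.33). With 1 library per group, none of these differences between the pairs was tested.

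**Figure D5:**
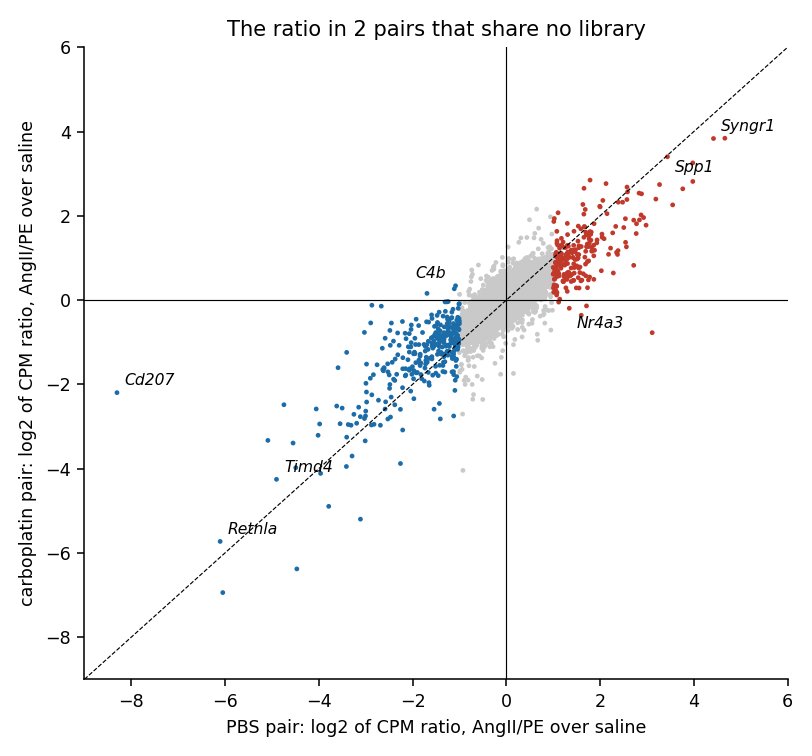
Log2 of the CPM ratio of AngII/PE over saline in macrophages after PBS (x axis) and after carboplatin (y axis), 1 point per gene for the 8638 genes compared. The 238 genes at least 2-fold higher after PBS are red and the 319 at least 2-fold lower are blue, the dashed line marks equal ratios, and most coloured points lie on the same side of 0 in both pairs.

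The sexes gave the same direction for nearly all called genes. Of the 238 higher genes 238, and of the 319 lower genes 318, had the same direction in female-called (1157 saline and 788 AngII/PE) and male-called cells (1218 and 1813). Both sexes enter the sum by which the genes were called, so this is in part built in. Cyp51 was the exception among the named genes. Counted separately, female-called cells gave 250 higher and 346 lower genes and male-called cells 363 and 385. With the sexes weighted equally in both libraries, an alternative added after the data were seen, 254 genes were higher and 307 lower, and 229 and 290 of the 238 and 319 genes remained.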

How the data were processed

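RNA of sorted heart phagocytes was counted in 4 droplet libraries, of which the PBS saline and PBS AngII/PE libraries form the comparison and the carboplatin pair stands beside it. The authors deposited raw UMI counts per gene and barcode, made with Cell Ranger 7.1.0 per the file headers and with version 3 per the labels' protocols, on mm10 per the labels. Seurat is given as version 3.2.3 in the labels and 4 in the submitters' processing notes. The treatment of intronic reads is not given in the labels or headers. Gene coordinates come from GENCODE M21, which held 32158 of the 32285 gene IDs.

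Cells were kept by the limits given at the opening of the results. UMIs were summed over the macrophages of each library and divided by their total to give CPM, and ratios were taken where the mean level reached 10 CPM. No test was made, since each group is 1 library. Intervals of ratios are exact conditional binomial and those of shares exact Clopper-Pearson, both at 95%, and the limit for a share of 0 is 3 counts of the total. Cells with Xist and no UMI of Ddx3y, Uty, Eif2s3y or Kdm5d were called female, and those with a UMI of these 4 genes and no Xist male. Shares of cells were compared after thinning each cell to 2000 UMIs. Barcodes of other cell types, used as references, had under 1 C1q UMI per 10000 and at least 20 UMIs per 10000 of that type's markers. "Cells with markers of other cells" are macrophages with at least 5 UMIs per 10000 of such a marker list. Without them 1521 of 3251 saline and 1895 of 3157 AngII/PE macrophages remained. The lists hold genes found in many macrophages, such as Cd36 (42.2% and 10.1% of cells at 2000 UMIs) and Ighm (32.0% and 24.7%). Values without these cells thus describe a selected part of the macrophages. No doublet caller was run, and the counts were repeated without the 5% of cells with most UMIs and without cells with markers of other cells.

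The members and gene lists were chosen with earlier results of these data known. Named genes are the 15 highest and 15 lowest ratios at a mean of 20 CPM or more, leaving out mitochondrial, ribosomal, sex-linked and unnamed genes, markers of other cells and genes that other cells held at over 5 times the level of macrophages. From each function list they also include up to 6 members past 2-fold with the largest ratios, or the 2 largest where fewer than 2 passed, and the identity markers. Named outside that rule, after their values were seen, were Mrc1, Maf, Igf1, Stab1, Selenop, Folr2, F13a1, Id2, Arid5b, Spi1, Irf8, Lpl, Apoe, P2ry12, Cx3cr1, Ifi30, Ccr2, Ccl2, Ccl7, Tnf, Il1b, Gas6, Pros1, Fth1, Ftl1, Hmox1, Samd9l, Oas2, Ifi203, Nppa, Ankrd1, Tnnt2, Myh6, Tnni3, Flt3, Zbtb46, Adgre4, Gsn, Col1a1, Col3a1 and Dcn. Some members of the lists are not reported here by name. Promoters are from RefSeq (GRCm38.p6), matched by symbol, and motifs were searched on both strands. Scripts ran under Python 3.11.15 with numpy 2.4.6, scipy 1.17.1, pandas 2.3.3 and matplotlib 3.10.9, and the ratio step was tested on simulated data.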

Additional observations from a re-analysis of the deposited data

Results flagged for a closer look

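Of the named genes, 3 had opposite directions in groups under the same contrast. C4b, of the classical complement pathway, had a log2 ratio of AngII/PE over saline of -1.69 after PBS and 0.16 after carboplatin. The nuclear receptor Nr4a3, an immediate-early gene, had 1.34 after PBS and -0.19 after carboplatin. The sterol enzyme Cyp51 had 0.15 for female-called and -1.64 for male-called cells of the PBS pair. Each group is 1 library, so none of these differences was tested.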

How the results depend on the processing

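No paired analysis was possible because each group is 1 library and the groups share only the replicate number 1. Leaving out a replicate was not possible for the same reason. The counts of 238 higher and 319 lower genes became 612 and 938 with a mean of 1 CPM in place of 10, and 80 and 123 with 50 CPM, where more or fewer genes are compared. Male-called cells alone gave 363 higher genes. Leaving out cells with 5 or more UMIs of G2 and M phase genes gave 365 higher genes, but left only 1382 saline and 941 AngII/PE cells. An alternative added after seeing the data, without cells with 2 or more UMIs of Mki67 and Top2a, left 3151 and 3024 cells and gave 247 and 323. All other counts were within 1.5 times the main ones, from 230 to 264 higher and 305 to 408 lower.

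Some list medians near 0 changed sign. With a mean of 50 CPM, the C-type lectin receptors median log2 ratio was -0.0107 (-0.11 with 1 CPM), the Efferocytosis and scavenger receptors median -0.0297 and the Iron and haem handling median 0.11. In female-called cells the Sterol synthesis and uptake median was 0.15, and Cyp51 was at 0.15. The Growth factors and their receptors median was 0.0397 over the 25 members that reached 10 CPM in female-called cells, but -0.19 there over the 27 members of the main comparison. In male-called cells the Interferon gamma induced GTPases and related median was 0.0894 and the Glycolysis and hypoxia response median -0.0202. Over the members of the main comparison, medians nearer to 0 also changed sign. In female-called cells they went to 0.20 for the unfolded protein response, -0.08 for the glucocorticoid and mineralocorticoid response and 0.05 for p53 targets. There they also went to -0.04 for angiotensin and adrenergic signalling and 0.28 for type I interferon. In male-called cells the median went to -0.09 for NF-kappa B genes. The MHC class I median in female-called cells and the type I interferon median in male-called cells lay just above 0. MHC class II members at least 2-fold lower, 0 of 13 over all macrophages, were 6 of 12 without cells with 5 or more G2 and M phase UMIs. The cause was not tested. Of 153 named genes past 2-fold, 152 kept their direction in female-called cells, 132 of them past 2-fold, and those that did not pass there include Hspa1a, Hspa1b, Ctsl, Lgmn, Grn, Fcrls, Ms4a4a, Fkbp5 and Ddit4. Under every other setting in which a value could be had, each kept its direction. Without the 5 cells richest in each gene, Cxcl13 had no value. With 1 library of pooled mice per group, the spread between mice is not known, and depth limits mainly the genes with few UMIs, such as Cd207 with 8 in the AngII/PE library.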
